A study of Bos taurus with 5 samples.

Results

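Glycolysis, pyruvate and lactate handling was followed here through 34 genes, given as a list of symbols and found by exact gene name among the 27607 genes of the deposited table; all 34 were matched once each. They run from glucose uptake through the glycolytic enzymes to lactate dehydrogenase, the monocarboxylate and mitochondrial pyruvate carriers, and the pyruvate dehydrogenase complex with its kinases and a phosphatase. The samples were 5 pools of 100 cattle embryos (Bos taurus) grown in vitro, 3 pools from high-performing and 2 from low-performing sires, at the 4-cell stage by the sample labels and at 2 to 4 cells by the series text. Recombinant Wnt5A is named in the protocol of all 5 alike, with no untreated pool among them. Performance is not defined in the labels, which name neither bulls nor breeds and do not tell separate fertilisations from repeat pools of the same batch. The p-values therefore set the difference between the groups against the scatter of these pools, and part of that scatter may be technical.

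Glycolysis splits glucose into pyruvate, which is either reduced to lactate in the cytosol or carried into mitochondria and oxidised by pyruvate dehydrogenase. Cleavage-stage mammalian embryos are known for relying on pyruvate and lactate more than on glucose, with glucose use rising later, around compaction and blastocyst formation. Most mRNA at the stages sampled here is inherited from the egg, so a level can reflect storage and decay of maternal mRNA as well as new transcription. Several steps are run by alternative enzymes from separate genes, called isoforms below, that differ in kinetics and in the tissues that use them.

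Levels are the RPKM values computed by the authors, reads per kilobase of gene scaled to the reads counted in genes. This puts genes on a common scale. Comparisons between genes still depend on the annotated length and on reads shared with overlapping or near-identical genes. The pools held 67248924 to 113100809 reads in genes, and 3 reads in a gene of 1 kb are worth 0.0265 to 0.0446 RPKM, for counting error only. Low-performing pool 2 stood apart from the other pools, at 52.4 on a first principal component that carried 84.1% of the variance, against 9.07 for low-performing pool 1 and -28.8 to -8.62 for the high-performing pools. Leaving it out moved the fold change of 17 of the 28 genes tested by over 1.5 times, and values without it are given beside those genes.  Fold changes below are differences of log2(RPKM + 1), low-performing minus high-performing, from limma fitted on the 12448 genes with at least 1 RPKM in at least 2 pools, with Benjamini-Hochberg adjustment over those genes.

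All 14 oocyte and early embryo markers listed passed the filter on low values, among them GDF9 at 419.9 to 601 RPKM. In both low-performing pools 9 of the 14 lay above, and 0 below, every high-performing pool, beside 29.4% and 29.3% of all genes tested. At an unadjusted p under 0.05 from limma 5 were higher, beside 19.0% of all genes. At an adjusted p under 0.05 there were 0, beside 0% of all genes. In the authors' deposited table BTG4 (FDR = 1.75e-06), OOEP (FDR = 0.000186), MOS (FDR = 0.00202) and FIGLA (FDR = 0.00228) passed as higher, beside 11.0% of the 12448 genes tested here. Log2 fold changes lay above 0 in 10 of the 14 and below 0 in 4, beside 46.7% and 53.3% of all genes tested. Those below 0 were NLRP5 (-0.092), DPPA3 (-0.081), ZP2 (-0.022) and WEE2 (-0.0046). The largest were 1.21 for OOEP, 0.95 for FIGLA, 0.90 for BTG4 and 0.68 for MOS. Without low-performing pool 2 they were 0.74, 0.52, 0.64 and 0.60. OOEP, FIGLA, BTG4 and MOS are short, at 1045, 794, 669 and 1023 bases. With a trend over gene length removed from each library they stood at 0.85, 0.48, 0.38 and 0.32. The summed level of the list was 13102 to 17546 RPKM in the high-performing and 20591 to 26334 RPKM in the low-performing group. BTG4 alone gave 6021 to 9357 RPKM of it in the high-performing and 11816 to 16943 RPKM in the low-performing group. The part of the higher marker levels in those of HK1, LDHB, MPC1 and MPC2 was not tested.

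In the pools from low-performing sires, mRNAs for hexokinase HK1, lactate dehydrogenase LDHB, aldolase ALDOC, the dehydrogenase components PDHB and PDHX, and both subunits of the mitochondrial pyruvate carrier stood above every high-performing pool. GAPDH, ALDOA, PGAM1, PKM, HK2, the glucose transporter SLC2A3, the dehydrogenase subunit PDHA1, 3 pyruvate dehydrogenase kinases and the phosphatase PDP1 stood below every high-performing pool. Of the 34 genes, 28 passed the filter and 6 did not. Among the 28, 7 had both low-performing pools above all high-performing pools, against 29.4% of all genes tested, and 11 had both below, against 29.3%. Fold changes lay above 0 in 9 and below 0 in 19, beside 46.7% and 53.3% of all genes. Their median log2 fold change was -0.19, beside -0.031 for all genes tested, and the median was -0.053 once a trend over gene length had been removed from each library. With that trend removed the count below fell to 6, against 26.2% of all genes.

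None of the 28 passed limma at an adjusted p under 0.05 (smallest 0.0834, for HK1), where 0% of all genes passed, 0 of 12448. At an unadjusted p under 0.05, 5 were higher and 4 lower, beside 19.0% and 15.9% of all genes (34.9% in either direction), and limma voom on reads worked out from RPKM also passed 0. In the authors' deposited table of their own comparison, 3 of the 34 passed an FDR of 0.05, all higher in the low-performing pools, beside 5.51% of its 27607 genes and 11.0% of the 12448. No member was lower, beside 2.45% and 5.07%, and over both directions 7.95% of the 27607 passed. The 3 were MPC2 (FDR = 0.00399), MPC1 (FDR = 0.00955) and HK1 (FDR = 0.0147). With low-performing pool 2 as the only pool of its group, limma called 10 of the 28 and 5372 genes in all, a fit in which that lone pool is assumed to vary like the others. Those called were HK1, LDHB, MPC1 and MPC2 (higher) and HK2, DLAT, PDK1, PDK2, PDK3 and PDP1 (lower). Without low-performing pool 2, limma called 0.

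**Figure D1:**
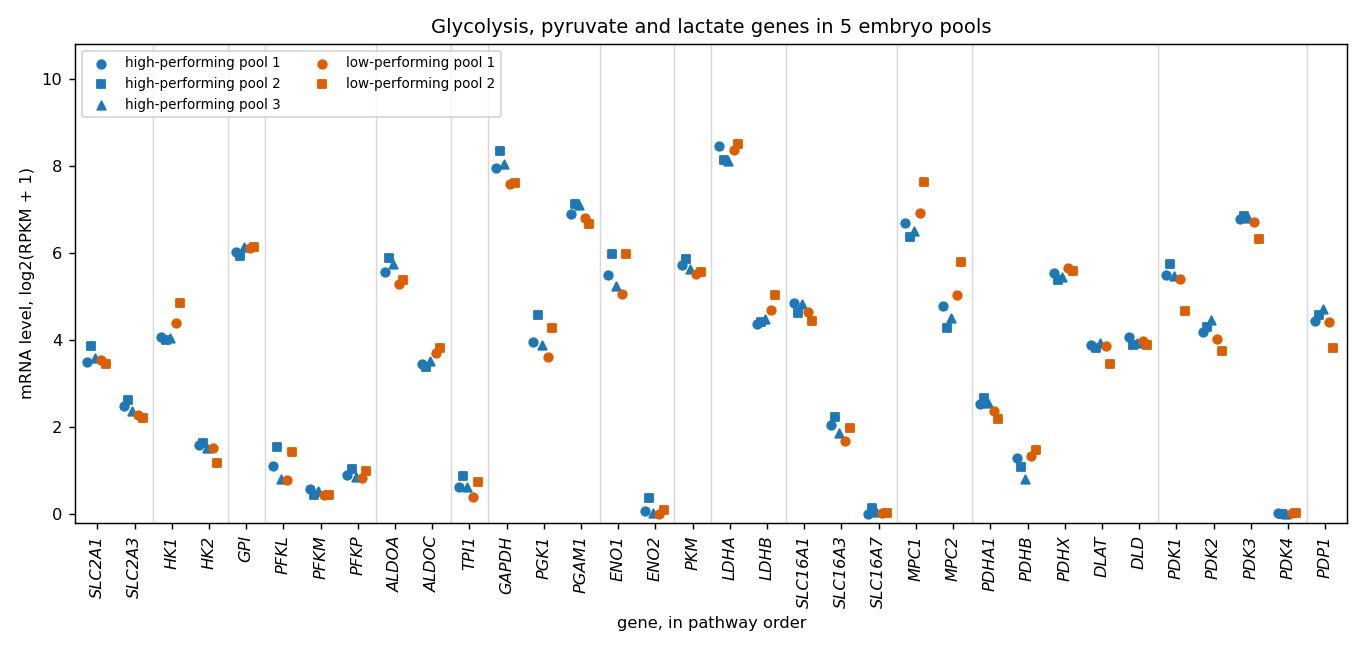
Level of each of the 34 genes, as log2(RPKM + 1), in each pool, in pathway order with a vertical line between steps; circles, squares and triangles are pools 1, 2 and 3, blue for high-performing and orange for low-performing. LDHA, GAPDH, PGAM1 and PDK3 lie near the top, while the 3 phosphofructokinase genes, TPI1, ENO2, SLC16A7 and PDK4 lie near 0 to 2.

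Glucose enters through facilitative transporters, of which SLC2A1 (GLUT1) is the widespread form and SLC2A3 (GLUT3) a high-affinity form. SLC2A1 had 10.3, 13.5 and 11.0 RPKM in high-performing pools 1 to 3 and 10.7 and 9.86 RPKM in low-performing pools 1 and 2. The groups overlapped, with a log2 fold change of -0.15 ± 0.15 (SE) that was -0.099 without low-performing pool 2 and, separately, -0.060 with the length trend removed. SLC2A3 was scarcer, at 4.61, 5.11 and 4.12 RPKM in the high-performing and 3.85 and 3.61 RPKM in the low-performing pools. Both low-performing pools lay just under the lowest high-performing pool, and the log2 fold change was -0.24 ± 0.14 (SE), which moved to -0.038 with the length trend removed. Of the RPKM of the pair, SLC2A1 made up 69.0%, 72.6% and 72.8% in the high-performing pools and 73.5% and 73.2% in the low-performing pools. Among other carriers, the sodium-coupled SLC5A1 (15.9 to 23.1 RPKM) and SLC2A8 (15.7 to 17.1 RPKM) were more abundant than SLC2A1, and the liver form SLC2A2 reached at most 0.0527 RPKM.

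Hexokinase traps glucose in the cell as glucose 6-phosphate, and its isoforms lay on opposite sides of 0. HK1 (chromosome 28, positions 25694146 to 25769790 of ARS-UCD1.2, + strand), the form with the broadest tissue range, had 15.9, 15.1 and 15.4 RPKM in high-performing pools 1 to 3 and 20.1 and 27.9 RPKM in low-performing pools 1 and 2. The 3 high-performing pools were tightly grouped and both low-performing pools lay above them, pool 2 farther than pool 1. As means this was 15.5 ± 0.387 RPKM (SD, n = 3) against 24.0 ± 5.50 RPKM (SD, n = 2), and the log2 fold change was 0.58 ± 0.16 (SE), adjusted p = 0.0834, with a 95% confidence interval of 0.20 to 0.96. Leaving out low-performing pool 2 gave 0.36, and leaving out pool 1 gave 0.81. HK2, the insulin-responsive form of muscle and of many growing cells, had 2.00, 2.11 and 1.87 RPKM in the high-performing and 1.86 and 1.24 RPKM in the low-performing pools. Its low-performing pools lay below, pool 1 only barely, with a log2 fold change of -0.24 ± 0.14 (SE). Without low-performing pool 2 that of HK2 was -0.065, and the length correction left -0.048. Of the RPKM of the pair, HK1 made up 88.8%, 87.7% and 89.2% in the high-performing pools and 91.5% and 95.7% in the low-performing pools. The HK1 minus HK2 difference, in log2(RPKM + 1), shifted by 0.82 (high-performing 2.46 ± 0.078, SD, n = 3; low-performing 3.28 ± 0.57, SD, n = 2), and by 0.42 without low-performing pool 2. An exact two-sided permutation test over the 5 pools gave p = 0.1, the smallest that 10 splits allow, and adjusted p = 0.45 over 9 pairs. A further hexokinase-like gene, HKDC1, was more abundant than HK2, at 6.47, 7.19 and 6.40 RPKM in the high-performing and 5.84 and 4.46 RPKM in the low-performing pools, and also lay below in both low-performing pools, with a log2 fold change of -0.33 ± 0.15 (SE) that was -0.17 without pool 2. HK1 shares 1440 exon bases with TACR2 on the opposite strand, a gene with 50 to 148 reads a pool beside 6027 to 15489 for HK1.

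GPI, which turns glucose 6-phosphate into fructose 6-phosphate, stood at 63.5, 59.7 and 69.2 RPKM in the high-performing and 68.6 and 69.2 RPKM in the low-performing pools. The groups overlapped, and the log2 fold change of 0.10 ± 0.13 (SE) had a 95% confidence interval of -0.20 to 0.41. Phosphofructokinase, the committed step of glycolysis, was scarce in all 5 pools, in the muscle (PFKM), liver (PFKL) and platelet (PFKP) forms alike. PFKL had 1.14, 1.90 and 0.749 RPKM in the high-performing and 0.724 and 1.70 RPKM in the low-performing pools, with a log2 fold change of -0.038 ± 0.26 (SE) that was -0.36 without low-performing pool 2. PFKM (0.353 to 0.488 RPKM) and PFKP (0.783 to 1.05 RPKM) were under the filter, and the 3 genes together summed to 2.60 ± 0.664 RPKM (SD, n = 3) in the high-performing and 2.46 ± 0.846 RPKM (SD, n = 2) for the low-performing group. PFKP shares 847 exon bases with PITRM1 on the opposite strand, a more abundant gene. Strand use in the read counting was not given in the sources used here. Reads on such stretches therefore cannot be assigned. Other enzymes set the level of fructose 2,6-bisphosphate, an activator of phosphofructokinase. PFKFB1, a bifunctional kinase and phosphatase of this sugar, had 3.04, 1.83 and 2.01 RPKM in the high-performing and 5.06 and 12.8 RPKM in the low-performing pools, which gave a log2 fold change of 1.49 ± 0.33 (SE), adjusted p = 0.0829. PFKFB1 rose in the authors' deposited table (FDR = 3.18e-06), and without low-performing pool 2 its log2 fold change was 0.90. The related PFKFB2 was more abundant, at 11.7, 14.0 and 13.2 RPKM in the high-performing and 11.4 and 7.62 RPKM in the low-performing pools. Its log2 fold change was -0.43 ± 0.18 (SE), or -0.16 without low-performing pool 2. PFKFB3 and PFKFB4 overlapped between the groups, at -0.024 and -0.037. TIGAR, which degrades the activator, stood far higher at 163 to 199 RPKM with a log2 fold change of 0.054 ± 0.14 (SE) that was -0.21 with the length trend removed.

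Aldolase, which splits the sugar into triose phosphates, also had isoforms on opposite sides of 0. ALDOA (chromosome 25, positions 26212553 to 26218476, - strand), the muscle and general form, had 45.9, 58.2 and 52.3 RPKM in high-performing pools 1 to 3 and 37.7 and 40.7 RPKM in low-performing pools 1 and 2. All high-performing pools lay above both low-performing pools, with a log2 fold change of -0.40 ± 0.14 (SE), adjusted p = 0.109. ALDOC, the brain form, had 9.89, 9.36 and 10.4 RPKM in the high-performing and 12.1 and 13.1 RPKM in the low-performing pools. Here the low-performing pools lay above, with a log2 fold change of 0.32 ± 0.13 (SE), adjusted p = 0.129. The ALDOC share of the pair was 17.7%, 13.9% and 16.6% in the high-performing pools and 24.2% and 24.4% in the low-performing pools. The ALDOA minus ALDOC difference shifted by -0.72 (high-performing 2.28 ± 0.21, SD, n = 3; low-performing 1.57 ± 0.0045, SD, n = 2), with an exact two-sided permutation p of 0.1, the smallest possible, and adjusted p = 0.45. Both low-performing pools gave nearly the same value, and the shift lay between -0.80 and -0.60 with any 1 pool left out.

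**Figure D2:**
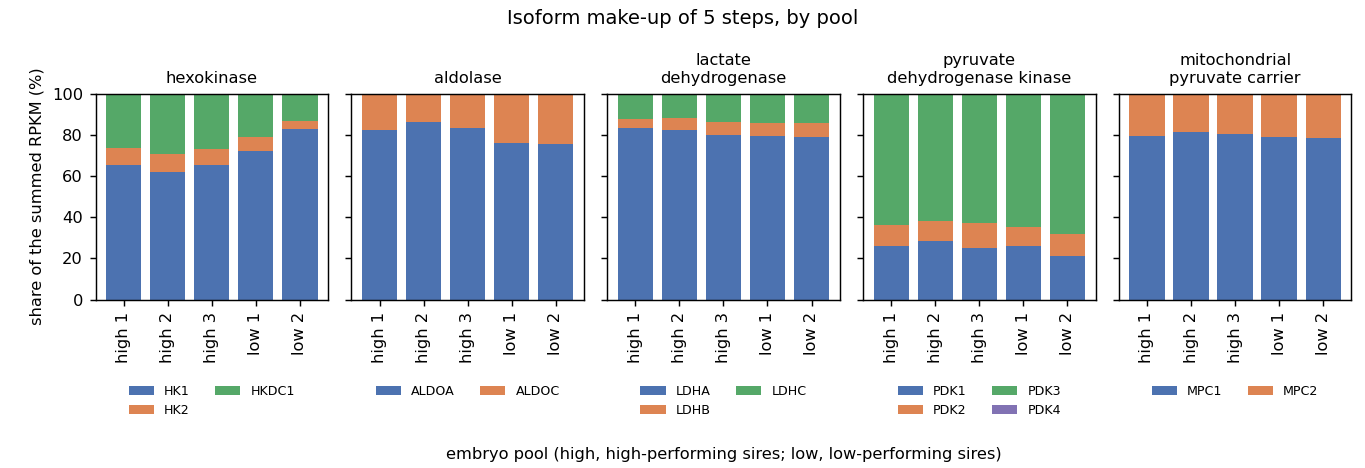
Share of each gene in the summed RPKM of its step, in percent, for each pool. Bars start at 0, and HKDC1 and LDHC are added to the listed genes for comparison. MPC1 and MPC2 are subunits of the same carrier and not isoforms. HK1 takes 83.0% of hexokinase RPKM in low-performing pool 2 and 61.9% in high-performing pool 2, and the ALDOC share is 24.2% and 24.4% in the low-performing pools against at most 17.7% in the others.

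Below aldolase the sugar phosphates are converted to pyruvate, and 3 mRNAs of this stretch, GAPDH, PGAM1 and PKM, lay lower in both low-performing pools, while those of PGK1 and ENO1 overlapped between the groups. GAPDH (chromosome 5, positions 103870384 to 103874824, - strand), glyceraldehyde 3-phosphate dehydrogenase and number 274 of all genes by mean RPKM, had 248, 324 and 263 RPKM in high-performing pools 1 to 3 and 192 and 194 RPKM in low-performing pools 1 and 2. Its low-performing pools were almost equal and lay under all 3 high-performing pools. The means were 278 ± 40.4 RPKM (SD, n = 3) against 193 ± 0.912 RPKM (SD, n = 2), and the log2 fold change was -0.52 ± 0.16 (SE), adjusted p = 0.0876, with a 95% confidence interval of -0.89 to -0.15. It stayed between -0.73 and -0.40 over the alternatives. GAPDH is often used to normalise measurements of single genes. PGAM1, phosphoglycerate mutase, had 119, 138 and 136 RPKM in the high-performing and 109.7 and 100.2 RPKM in the low-performing pools. The groups did not overlap, with a log2 fold change of -0.32 ± 0.14 (SE), adjusted p = 0.148. PKM, pyruvate kinase, had 51.4, 57.0 and 48.8 RPKM in the high-performing and 44.9 and 46.6 RPKM in the low-performing pools, lower in both low-performing pools by a log2 fold change of -0.19 ± 0.13 (SE) that shrank to -0.059 with the length trend removed. Its splice forms are not separated in the table. These genes belong to families with many processed pseudogenes, so reads shared with near-identical copies make single values uncertain.

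PGK1 and ENO1, the phosphoglycerate kinase and the main enolase, differed more between pools of a group than between groups. PGK1 had 14.6, 22.7 and 13.7 RPKM in high-performing pools 1 to 3 and 11.3 and 18.4 RPKM in low-performing pools 1 and 2. ENO1 had 44.0, 61.6 and 37.0 RPKM in the high-performing and 32.0 and 61.5 RPKM in the low-performing pools. In both genes the highest pools were high-performing pool 2 and low-performing pool 2, and the log2 fold changes were -0.18 ± 0.27 (SE) and -0.064 ± 0.30 (SE). Without low-performing pool 1 they turned to 0.15 and 0.40, and without pool 2 they were -0.52 and -0.52. Triose phosphate isomerase, TPI1, was listed at 0.537, 0.818 and 0.541 RPKM in the high-performing and 0.316 and 0.654 RPKM in the low-performing pools, far below its neighbours in the pathway. It shares 1122 of its 1763 bases with SPSB2 on the opposite strand, and the part of that overlap in its low level was not tested. ENO2, the neuronal enolase, had 20, 59 and 4 reads in the high-performing and 2 and 17 in the low-performing pools.

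The same pair of pools was highest for PFKL, PFKP, TPI1, PGK1, ENO1 and ENO2, 6 of the 34 genes, against 3.95% of the 12448 genes tested and 6.17% of the 22612 genes with any read. This count was made after the values were seen. Among 29 markers of cumulus and granulosa cells, the somatic cells that surround the egg and that run glycolysis at a high rate, 10 had their highest levels in the same pair of pools, and among 14 oocyte and early embryo markers 0 did. CYP11A1, the side-chain cleavage enzyme that starts steroid synthesis, had 5.45, 12.9 and 6.59 RPKM in the high-performing and 4.52 and 12.5 RPKM in the low-performing pools. HSD3B1, the next steroidogenic enzyme, had 4.28, 11.2 and 4.52 RPKM in the high-performing and 4.10 and 7.24 RPKM in the low-performing pools. The matrix protein gene LUM and the keratin gene KRT8 had the same highest pools, at up to 10.7 and 5.83 RPKM in high-performing pool 2. The log2 fold changes of CYP11A1, HSD3B1, LUM and KRT8 were -0.029 ± 0.43 (SE), -0.13 ± 0.38 (SE), -0.021 ± 0.47 (SE) and -0.080 ± 0.30 (SE), with overlap between the groups. Counting these, 16 of 18 tested markers had fold changes below 0, beside 53.3% of all genes tested, and 13 of 18 with the length trend removed. In 7 both low-performing pools lay below all high-performing ones and in 0 both lay above, beside 29.3% and 29.4% of all genes. At an unadjusted p under 0.05 from limma 3 were lower, beside 15.9%. These 3 were THBS1, GREM1 and HAS2, at -0.80, -0.56 and -0.47, and none passed at an adjusted p under 0.05. Without low-performing pool 2 they stood at -0.46, -0.27 and -0.22. With the length trend removed they stood at -0.53, -0.44 and -0.22. In the authors' deposited table THBS1 (FDR = 0.00946) and INHBB (FDR = 0.0213), which was under the filter here, passed as lower, beside 2.45% of its 27607 genes. The summed level of the list was 301 to 324 RPKM in the high-performing and 277 to 282 RPKM in the low-performing group, of which STAR alone gave 147 to 171 RPKM. None of the 29 was at 0 in every pool, while the follicle-stimulating hormone receptor FSHR reached at most 0.0736 RPKM and the granulosa factor FOXL2 at most 0.327 RPKM. The part of somatic cells in the levels of these glycolytic genes, and in the lower GAPDH, ALDOA, PGAM1 and PDK levels, was not tested, and in pooled embryos fewer cells of a type and less RNA per cell cannot be told apart. Without these 2 pools the log2 fold changes were 0.34 for HK1, 0.26 for LDHB, -0.41 for GAPDH, -0.37 for ALDOA, 0.32 for MPC1 and -0.084 for PDK1.

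**Figure D3:**
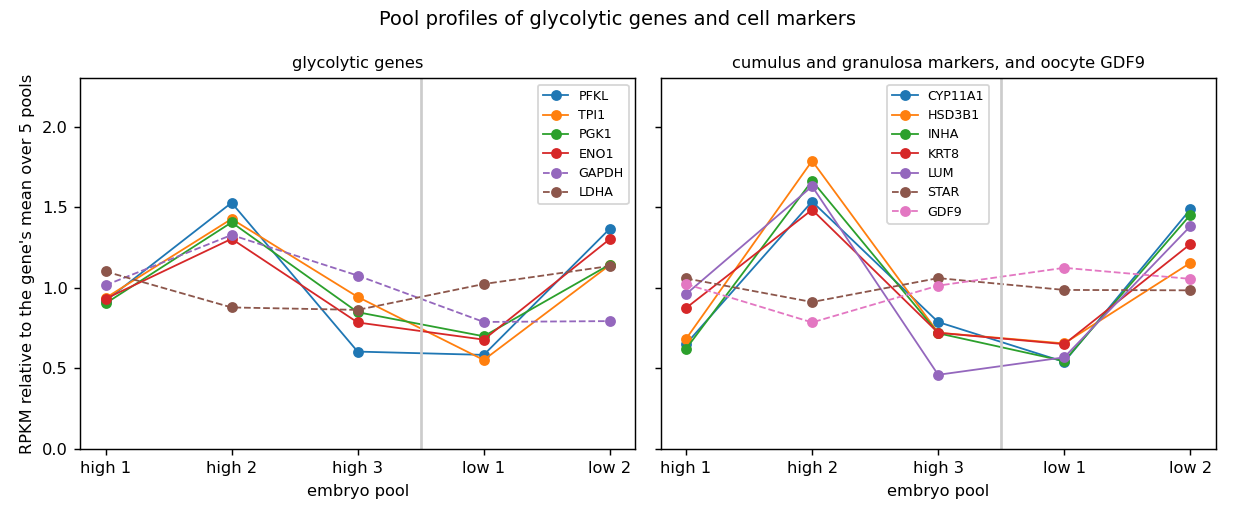
RPKM of a gene in each pool divided by its mean over the 5 pools, for glycolytic genes (left) and for cumulus and granulosa markers with oocyte GDF9 (right); lines only join the points of a gene, and dashed lines mark genes that do not share the pattern. PFKL, TPI1, PGK1 and ENO1 peak in high-performing pool 2 and low-performing pool 2, as CYP11A1, HSD3B1, INHA, KRT8 and LUM do, whereas GAPDH, LDHA, STAR and GDF9 do not.

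Lactate dehydrogenase interconverts pyruvate and lactate. LDHA (chromosome 29, positions 26290893 to 26301350, - strand), whose protein favours lactate formation, was the most abundant of the 34 mRNAs and number 179 of all genes, at 351, 280.1 and 275 RPKM in high-performing pools 1 to 3 and 326 and 362 RPKM in low-performing pools 1 and 2. The groups overlapped, and the log2 fold change, 0.19 ± 0.16 (SE), reversed to -0.062 under quantile normalization and was 0.12 without low-performing pool 2. LDHB, whose protein favours pyruvate formation, had 19.8, 20.3 and 21.2 RPKM in the high-performing and 24.7 and 31.7 RPKM in the low-performing pools. The 3 high-performing pools were close together and both low-performing pools lay above them, as means 20.4 ± 0.747 RPKM (SD, n = 3) against 28.2 ± 4.93 RPKM (SD, n = 2). Its log2 fold change was 0.44 ± 0.15 (SE), adjusted p = 0.0976, and it was 0.26 without low-performing pool 2. Removing the length trend gave 0.37. As a share of the pair, LDHA made up 94.7%, 93.3% and 92.8% in the high-performing pools and 93.0% and 92.0% in the low-performing pools. The LDHA minus LDHB difference shifted by -0.24 (high-performing 3.81 ± 0.24, SD, n = 3; low-performing 3.57 ± 0.14, SD, n = 2), and by -0.14 without pool 2. Gaps between single low- and high-performing pools ran from -0.61 to 0.037, and the exact two-sided permutation p was 0.4. LDHC, known as the form of testis and sperm, was more abundant than LDHB in all 5 pools, at 51.6, 40.2 and 47.5 RPKM in the high-performing and 59.6 and 66.4 RPKM in the low-performing pools, with a log2 fold change of 0.44 ± 0.15 (SE), adjusted p = 0.1. Leaving out low-performing pool 2 gave 0.36, and removing the length trend gave 0.23. Other sperm-associated glycolytic genes were lower, GAPDHS at 1.49 to 2.97 RPKM and ENO4 at 4.80 to 5.70 RPKM. Of 16 sperm and spermatid markers 5 passed the filter. In 4 of these both low-performing pools lay above all high-performing ones, beside 29.4% of all genes tested. At an unadjusted p under 0.05 from limma 3 of the 5 were higher, beside 19.0%, and none passed at an adjusted p under 0.05. The acrosomal protein gene ACRV1 had 5.82, 5.91 and 5.67 RPKM in the high-performing and 9.03 and 16.6 RPKM in the low-performing pools, and SPA17 had 4.23, 3.04 and 3.39 RPKM in the high-performing and 5.40 and 10.6 RPKM in the low-performing pools. In the authors' deposited table ACRV1 (FDR = 0.000562) and SPA17 (FDR = 0.00659) passed as higher, beside 11.0% of the 12448 genes tested here. Their log2 fold changes were 0.97 and 0.93, or 0.56 and 0.50 without low-performing pool 2 and 0.66 and 0.42 with the length trend removed. That removal moved TSSK6 from 0.27 to -0.19 and ZPBP from 0.26 to 0.0075, and left 2 of the 5 below 0. The other of these was ODF2 (8.52 to 12.3 RPKM), at -0.26 before the removal and -0.045 after it. Of the genes for sperm nuclear proteins, PRM2 and TNP1 were at 0 in all pools, while PRM1 reached 0.0221 and TNP2 0.118 RPKM. The summed level of the list was 31.8 to 32.3 RPKM in the high-performing and 38.8 to 49.6 RPKM in the low-performing group, and its part in the LDHC level was not tested.

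Lactate and pyruvate cross the plasma membrane on monocarboxylate transporters. SLC16A1 (MCT1), the widespread form, had 27.9, 23.5 and 27.2 RPKM in the high-performing and 24.1 and 20.8 RPKM in the low-performing pools, with overlap between the groups and a log2 fold change of -0.21 ± 0.14 (SE). This was -0.11 without low-performing pool 2 and, separately, -0.076 with the length trend removed. SLC16A3 (MCT4), the form of lactate-exporting cells, had 3.15, 3.71 and 2.63 RPKM in the high-performing and 2.21 and 2.91 RPKM in the low-performing pools and a log2 fold change of -0.22 ± 0.16 (SE), or -0.36 without low-performing pool 2. The SLC16A1 minus SLC16A3 difference shifted by 0.0098 (high-performing 2.71 ± 0.30, SD, n = 3; low-performing 2.72 ± 0.34, SD, n = 2), with gaps between single pools from -0.48 to 0.59, and the exact two-sided permutation p was 0.9. SLC16A7 (MCT2), a high-affinity form, had 0, 16 and 7 reads in the high-performing and 4 and 2 in the low-performing pools, where a count of 0 allows up to 0.0107 RPKM. BSG (basigin), the partner that brings MCT1 and MCT4 to the membrane, had 59.1, 54.1 and 53.1 RPKM in the high-performing and 61.3 and 67.4 RPKM in the low-performing pools, and the related gene SLC16A13 was more abundant than MCT1 at 44.8 to 57.9 RPKM.

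Pyruvate enters mitochondria through a carrier made of MPC1 and MPC2, and both were higher in the low-performing pools. MPC1 (chromosome 9, positions 101357585 to 101370280, - strand) had 103, 80.8 and 89.4 RPKM in high-performing pools 1 to 3 and 119.8 and 196 RPKM in low-performing pools 1 and 2. MPC2 (chromosome 3, positions 752398 to 783103, + strand) had 26.6, 18.5 and 21.7 RPKM in high-performing pools 1 to 3 and 31.5 and 54.0 RPKM in low-performing pools 1 and 2. In both genes every low-performing pool exceeded every high-performing pool, with pool 2 far above pool 1. The means were 91.0 ± 11.0 RPKM (SD, n = 3) against 158 ± 53.8 RPKM (SD, n = 2) for MPC1 and 22.3 ± 4.08 RPKM (SD, n = 3) against 42.8 ± 15.9 RPKM (SD, n = 2) for MPC2. limma gave log2 fold changes of 0.75 ± 0.22 (SE), adjusted p = 0.0853, and 0.88 ± 0.25 (SE), adjusted p = 0.0837, respectively, and the authors' deposited table called both as risen, as given above. The rank order of the 5 pools was the same in both genes, and their difference within a pool, MPC1 minus MPC2, shifted by -0.12 (high-performing 1.99 ± 0.079, SD, n = 3; low-performing 1.87 ± 0.037, SD, n = 2), with exact two-sided permutation p = 0.2. Without low-performing pool 2 the log2 fold changes were 0.40 and 0.50. These are the shortest of the 34 genes, at 330 and 762 annotated bases, and short genes were higher in the low-performing pools as a class, with a median of 0.43 for the 644 genes of up to 500 bases and 0.50 for the 1049 of 501 to 1000 bases. With the length trend removed MPC1 stood at 0.20 and MPC2 at 0.40.

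**Figure D4:**
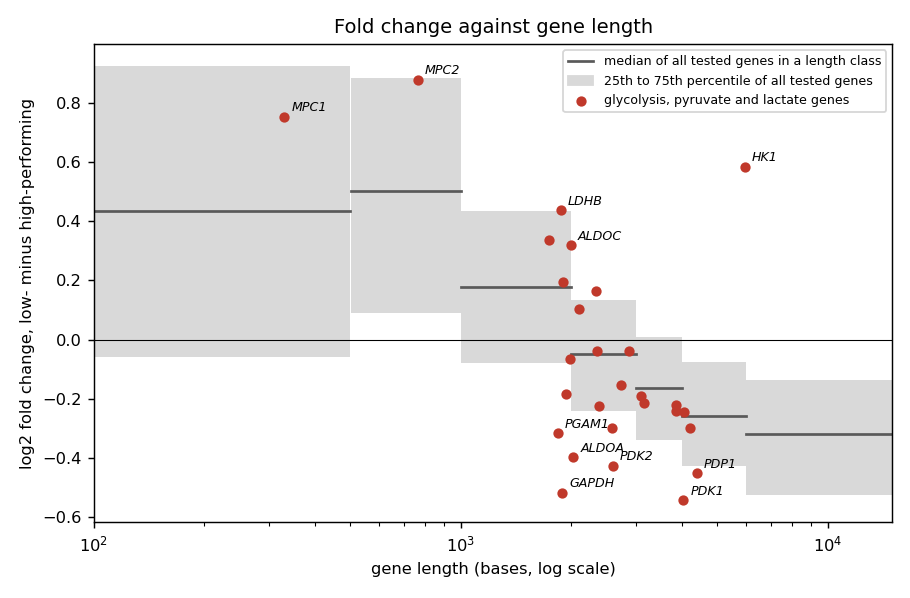
Log2 fold change, low-performing minus high-performing, against annotated gene length on a log axis; red points are the 28 genes tested, grey lines the median and grey boxes the 25th to 75th percentile of all tested genes in 7 length classes. MPC1 and MPC2 lie above the medians of their classes but inside the boxes, HK1 lies above its box, and GAPDH, ALDOA and PGAM1 lie below theirs.

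The pyruvate dehydrogenase complex turns pyruvate into acetyl-CoA, and the mRNAs of its parts differed widely in level and not in a common direction. PDHX, the binding protein of the E3 component, was the most abundant at 45.7, 40.5 and 42.6 RPKM in the high-performing and 49.1 and 47.2 RPKM in the low-performing pools, with both low-performing pools above and a log2 fold change of 0.16 ± 0.13 (SE). DLD, the dihydrolipoamide dehydrogenase that other dehydrogenase complexes share, had 15.8, 13.8 and 14.3 RPKM in the high-performing and 14.8 and 13.7 RPKM in the low-performing pools and a log2 fold change of -0.039 ± 0.13 (SE). DLAT, the acetyltransferase core, had 13.7, 13.1 and 14.1 RPKM in the high-performing and 13.4 and 9.92 RPKM in the low-performing pools, with low-performing pool 1 inside the high-performing range and a log2 fold change of -0.22 ± 0.16 (SE). Without pool 2 that of DLAT was -0.018 and that of DLD 0.013, and the length correction moved DLAT to -0.028. The E1 subunits were scarcer. PDHA1, the alpha subunit that the kinases phosphorylate, had 4.74, 5.34 and 4.83 RPKM in the high-performing and 4.15 and 3.56 RPKM in the low-performing pools, lower in both low-performing pools by a log2 fold change of -0.30 ± 0.13 (SE) that was -0.084 with the length trend removed. PDHB, the beta subunit, had 1.46, 1.13 and 0.750 RPKM in the high-performing and 1.52 and 1.76 RPKM in the low-performing pools, on 118 to 288 reads, with a log2 fold change of 0.34 ± 0.16 (SE). Alpha and beta thus stood on opposite sides of 0, though neither passed the test. PDHA1 shares 921 exon bases with MAP3K15, and PDHB shares 108 with PXK, each on the opposite strand. Summed over the 5 genes the level was 77.3 ± 3.73 RPKM (SD, n = 3) and 79.6 ± 4.88 RPKM (SD, n = 2) for high- and low-performing pools, and the groups overlapped.

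Pyruvate dehydrogenase kinases switch the complex off and the phosphatase PDP1 switches it back on, and the mRNAs of both kinds lay lower in the low-performing pools. PDK3 (chromosome X, positions 118815749 to 118898708, - strand) was the leading kinase, at 108, 115 and 109.8 RPKM in high-performing pools 1 to 3 and 104 and 78.3 RPKM in low-performing pools 1 and 2. PDK1 (chromosome 2, positions 24026650 to 24069014, - strand), a gene known to respond to low oxygen through HIF1, had 44.1, 52.4 and 43.5 RPKM in high-performing pools 1 to 3 and 41.3 and 24.2 RPKM in low-performing pools 1 and 2. PDK2, the most widespread form in adult tissues, had 17.2, 18.5 and 21.1 RPKM in the high-performing and 15.3 and 12.5 RPKM in the low-performing pools. In all 3 genes both low-performing pools lay below every high-performing pool, pool 2 farther than pool 1. The log2 fold changes were -0.30 ± 0.15 (SE), adjusted p = 0.203, for PDK3, -0.54 ± 0.23 (SE), adjusted p = 0.135, for PDK1, and -0.43 ± 0.15 (SE), adjusted p = 0.106, for PDK2. PDP1 had 20.7, 22.6 and 25.1 RPKM in the high-performing and 20.4 and 13.1 RPKM in the low-performing pools, with a log2 fold change of -0.45 ± 0.20 (SE), adjusted p = 0.149. Without low-performing pool 2 these were -0.098 for PDK3, -0.17 for PDK1, -0.29 for PDK2 and -0.15 for PDP1. Removing the length trend gave -0.23, -0.34, -0.35 and -0.23 in the same order. PDK1 and PDP1 are long, with 4033 and 4390 bases. Their class of 1547 tested genes (4001 to 6000 bases) had a median of -0.26 and a lower quartile of -0.43, and both genes lay below that quartile. PDK2 and PDK3, with 2593 and 2588 bases, lay below the lower quartile of their class (2001 to 3000 bases), -0.24. The 4 kinases together summed, in high- and low-performing pools, to 177 ± 8.32 RPKM (SD, n = 3) and 138 ± 32.0 RPKM (SD, n = 2). PDK4, the kinase of starvation and fat oxidation, had at most 9 reads in a pool, and none in high-performing pool 2. Of kinase RPKM, PDK3 made up 63.9%, 61.8% and 62.9% in the high-performing pools and 64.7% and 68.1% in the low-performing pools, without overlap. The PDK1 minus PDK3 difference shifted by -0.25 (high-performing -1.24 ± 0.10, SD, n = 3; low-performing -1.48 ± 0.25, SD, n = 2), and by -0.070 without low-performing pool 2, with exact two-sided permutation p = 0.2. The second phosphatase catalytic gene, PDP2, and the regulatory subunit gene PDPR also lay below in both low-performing pools, with log2 fold changes of -0.56 ± 0.22 (SE) and -0.54 ± 0.19 (SE), or -0.17 and -0.25 without low-performing pool 2.

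**Figure D5:**
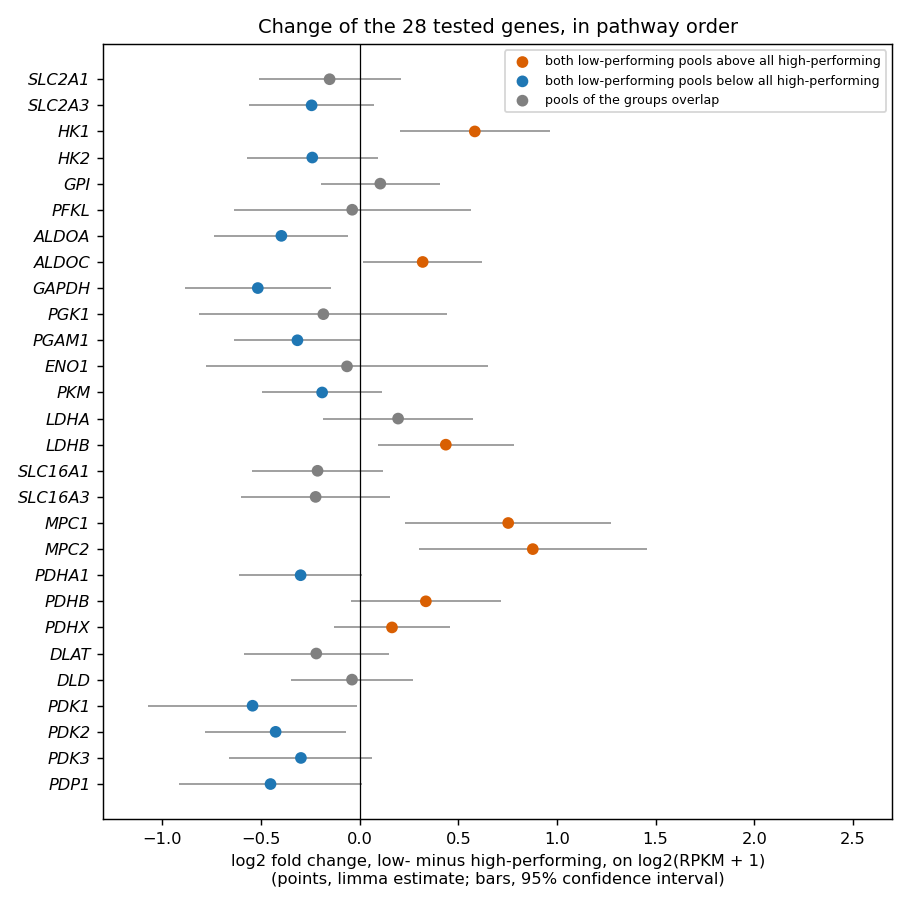
Log2 fold change of the 28 tested genes on the log2(RPKM + 1) scale, low-performing minus high-performing, with 95% confidence intervals from limma, in pathway order. Orange points (7 genes) have both low-performing pools above, and blue points (11 genes) both below, every high-performing pool; 0 genes passed at an adjusted p under 0.05.

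Across the 28 tested genes the fold change ran with gene length, with Pearson's r of -0.57 against log2 length, beside -0.47 over all 12448 genes; these are descriptions across genes, which are not independent replicates and share libraries. Some genes stood off that trend. HK1, with 5933 bases, was at 0.58 where its length class had a median of -0.26 and an upper quartile of -0.076, and with the trend removed it was at 0.88. GAPDH and PGAM1, with 1885 and 1838 bases, were at -0.52 and -0.32 in a class with a median of 0.18 and a lower quartile of -0.079. ALDOA, at 2023 bases, was at -0.40 in a class with a lower quartile of -0.24. With the trend removed these 3 stood at -0.58, -0.39 and -0.43.

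Of the 18 pairs listed, 9 had both genes above the filter. MPC1 and MPC2, subunits of the same carrier, were paired alike though they are not isoforms. In 3 of the 9 the pools of the groups did not overlap: HK1 and HK2, ALDOA and ALDOC, and MPC1 and MPC2. In these 3 the nearest pools of the groups stood 0.36, -0.54 and -0.018 apart, respectively. The share without overlap over all gene pairs was not worked out. Adjusted over the 9 pairs, the smallest exact permutation p was 0.45, and no pair could have passed 0.05. Neighbouring routes gave mixed directions. Among all genes tested, 29.4% had both low-performing pools above every high-performing pool and 29.3% had both below. Of 11 pentose phosphate genes tested, 4 lay above and 3 below in both low-performing pools, around a median log2 fold change of -0.023. RPIA, ribose 5-phosphate isomerase, was the most abundant at 668, 638 and 620.0 RPKM in the high-performing and 742 and 950.3 RPKM in the low-performing pools. Of 11 gluconeogenic and glycogen genes tested, 2 lay above, including PGM1 at 0.40 ± 0.14 (SE), and 4 below, including glycogenin GYG1 at -0.50 ± 0.17 (SE). Of 12 redox shuttle genes, 4 lay above and 4 below, among them malate dehydrogenase MDH2 at 0.29 ± 0.15 (SE) and aspartate aminotransferase GOT2 at -0.41 ± 0.16 (SE). Without low-performing pool 2 these 4 stood at 0.33, -0.29, 0.12 and -0.27, and with the length trend removed at 0.61, -0.46, 0.039 and -0.38. None of these genes passed limma at an adjusted p under 0.05.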

How the data were processed

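RNA from pools of 100 embryos was made into stranded mRNA libraries, per the labels' protocols. Tools named in the submitters' processing notes were FastQC, featureCounts and edgeR, on build ARS-UCD1.2. An aligner and a strand setting were not given in the sources used here. RPKM per library was deposited by the authors, with no trimmed-mean factor, since RPKM times kilobases summed to 1000000 in each. The authors also deposited a log2 fold change per gene (positive where low-performing pools are higher), log2 CPM, likelihood ratio score, p-value and FDR. All RPKM values were whole reads within 1e-06, which gave the depths.

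The main test was limma 3.58.1 (R 4.3.3) on log2(RPKM + 1), with its variance trend, two-sided at 0.05; a pseudocount of 1 understates changes of low genes. Isoform pairs, and MPC1 with MPC2, used exact permutation over the 5 pools. Alternatives were a pseudocount of 0.1, no filter, quantile normalization, a filter at a mean RPKM of 5, a trimmed-mean factor, removal of a loess trend over log2 length (span 0.5), limma voom, a replicate block and each pool left out. Genes outside the 34 were named as the tested gene with the smallest p per direction or the highest mean in their list, and others after their values were seen. Members and lists were chosen with earlier results of these data known. Some listed genes are not reported here. The fit was checked on simulated reads. Figures used Python 3.11.15 and matplotlib 3.10.9.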

Additional observations from a re-analysis of the deposited data

How the results depend on the processing

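Single-gene fold changes kept their direction and their side of the threshold in 364 recomputed values, crossed to a call in 10, all without low-performing pool 1, and changed sign in 11. The sign changes were LDHA with quantile normalization (-0.062), PFKL with the gene length trend removed (0.073), SLC2A1 without pool 2 of both groups (0.0067), and, with 1 pool left out at a time, DLD (-0.090 to 0.013), PFKL (-0.36 to 0.28), PGK1 (-0.52 to 0.15) and ENO1 (-0.52 to 0.40). For isoform pairs, PDK1 minus PDK2 ranged over -0.35 to 0.12 and SLC16A1 minus SLC16A3 over -0.23 to 0.25 with 1 pool left out. PDK1 minus PDK2 was 0.014 with the length trend removed and 0.22 without pool 2 of both groups, and SLC2A1 minus SLC2A3 was -0.022 with the length trend removed.

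The median over the genes was -0.12 with no filter, -0.053 with the length trend removed, -0.22 to -0.10 with 1 pool left out and -0.073 without pool 2 of both groups. Genes higher at an unadjusted p under 0.05 numbered 3 to 5 with 1 pool left out, lowest without high-performing pool 2 or low-performing pool 2, and genes lower numbered 0 without high-performing pool 2, 1 without high-performing pool 3, 2 without low-performing pool 2, and 9 without low-performing pool 1. Quantile normalization gave 7 lower, and leaving out pool 2 of both groups gave 0 higher and 1 lower. The count of genes below in both low-performing pools was 6 with the length trend removed. Genes called over the whole table ranged from 0 to 5372 with 1 pool left out, and calls among the 28 from 0 to 10, the highest without low-performing pool 1; without pool 2 of both groups 1 gene was called. The causes were not tested. The setting without pool 2 of both groups was chosen after seeing the data.

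The pool numbers are not known to pair the samples. Deviations from group means correlated at -0.48 for pools 1 and -0.26 for pools 2. The replicate number as a block gave 833 genes called, 0 among the 28, with 3 higher and 0 lower at an unadjusted p under 0.05. Depth limits ENO2, SLC16A7 and PDK4, and 2 pools in the low-performing group limit every comparison.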

Other observations

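Among genes that sense oxygen and energy and act on glycolysis, 15 of 18 tested had log2 fold changes below 0, beside 53.3% of all genes tested, and 12 of 18 were below 0 with the length trend removed. Of these 18, 9 had both low-performing pools below every high-performing pool and 2 had both above, against 29.3% and 29.4% of all genes tested, and the median log2 fold change was -0.16. HIF1A, the oxygen-regulated transcription factor subunit whose known targets include PDK1, had 45.5, 54.0 and 50.3 RPKM in the high-performing and 37.6 and 23.9 RPKM in the low-performing pools, which gave a log2 fold change of -0.71 ± 0.20 (SE). EGLN3 and EGLN1, the prolyl hydroxylases that mark that factor for decay, stood at -0.91 ± 0.27 (SE) and -0.63 ± 0.19 (SE), while EGLN2 stood at 0.32 ± 0.17 (SE). The catalytic subunits of AMP-activated kinase, PRKAA1 and PRKAA2, stood at -0.56 ± 0.17 (SE) and -0.44 ± 0.16 (SE). Of its regulatory subunits, PRKAG1 stood at 0.13 ± 0.12 (SE), PRKAG2 at -0.38 ± 0.17 (SE), PRKAB2 at -0.15 ± 0.15 (SE) and PRKAB1 at -0.095 ± 0.13 (SE). TXNIP, which restrains glucose uptake, had 18.0, 20.2 and 24.3 RPKM in the high-performing and 14.4 and 12.2 RPKM in the low-performing pools. None passed limma at an adjusted p under 0.05, and in the authors' deposited table TXNIP (FDR = 0.0198), EGLN3 (FDR = 0.0271), EGLN1 (FDR = 0.0322), HIF1A (FDR = 0.0409) and PRKAA1 (FDR = 0.0448) fell, beside 5.07% of the 12448 genes tested here. Without low-performing pool 2 the log2 fold changes were -0.40 for HIF1A, -0.43 for EGLN3, -0.40 for EGLN1, -0.31 for PRKAA1 and -0.28 for PRKAA2. That of HIF1A was -0.51 with the length trend removed.

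MPC1L, a second gene for an MPC1-like carrier protein, was singled out after its values were seen. It had 1.73, 1.16 and 1.64 RPKM in the high-performing pools and 2.20 and 3.78 RPKM in the low-performing pools, the same order of pools as in MPC1 and MPC2, with a log2 fold change of 0.65 ± 0.20 (SE). It is also short, at 694 bases.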
